A study of Mus musculus with 6 samples.

Results

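The genes described here are 10 stress and growth arrest genes, Plk2, Plk3, Gadd45a, Gadd45b, Gadd45g, Btg1, Btg2, Cdkn1a, Mdm2 and Trp53inp1, read by gene name from a table of 49315 genes. The group was selected on results of the combination against monotherapy contrast of these same libraries, so the differences of its members between groups are given as a description and support nothing further. CD8+ T cells were sorted from tumor-draining lymph nodes of wild-type female C57Bl6/J mice that carried B16F10 tumors, a transplanted mouse melanoma. The combination group received HCW9218 under the skin and an antibody against PD1 into the peritoneum (n = 3 mice), and the monotherapy group received HCW9218 alone (n = 3 mice). Treatment was a single dose at a tumor size of 50 to 100 mm3, and the mice were killed on day 5. HCW9218 joins TGF-βRII and IL-15 by the series title, and since all mice of both groups received it, no value here is relative to untreated mice. The age of the mice is not given in the sources used here, and the sample labels spell the tumor line B26F10.

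The transcription factor p53 is stabilised when DNA is damaged or cells are stressed, and it induces genes that stop the cell cycle, among them Cdkn1a, and genes that limit p53 itself, among them Mdm2. The polo-like kinases Plk2 and Plk3, the GADD45 proteins and the BTG proteins are also reached by p53, but many of them respond within minutes to growth factors, antigen receptor signals, cAMP or cell handling without it. In mouse T cells, BTG1 and BTG2 hold resting cells in quiescence by driving decay of messenger RNA, and GADD45 proteins act on the p38 and JNK kinase branches. The group therefore covers several regulatory inputs, and its members lay on both sides of 0 in these libraries.

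The 250 bases before the RefSeq start site (GRCm38.p6) are shown for the 5 members whose combination libraries all lay below the monotherapy libraries, and for Cdkn1a as the classical p53 target. All are written 5′ to 3′ on the strand of the gene. Capitals mark the cAMP response element (CRE) TGACGTCA, its core TGACG on either strand, and matches to the p53 half-site.
Plk2, chr13:110394794-110395043, plus strand: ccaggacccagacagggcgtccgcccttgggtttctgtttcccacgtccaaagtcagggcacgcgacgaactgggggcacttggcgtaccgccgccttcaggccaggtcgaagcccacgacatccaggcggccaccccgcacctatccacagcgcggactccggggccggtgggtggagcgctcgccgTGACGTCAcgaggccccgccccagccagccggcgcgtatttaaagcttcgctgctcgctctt
Plk3, chr4:117133964-117134213, minus strand: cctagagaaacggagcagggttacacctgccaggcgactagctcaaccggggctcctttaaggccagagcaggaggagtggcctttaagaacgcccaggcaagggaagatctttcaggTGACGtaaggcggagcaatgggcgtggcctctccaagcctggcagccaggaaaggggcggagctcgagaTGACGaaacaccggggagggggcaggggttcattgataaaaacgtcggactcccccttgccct
Gadd45b, chr10:80929841-80930090, plus strand: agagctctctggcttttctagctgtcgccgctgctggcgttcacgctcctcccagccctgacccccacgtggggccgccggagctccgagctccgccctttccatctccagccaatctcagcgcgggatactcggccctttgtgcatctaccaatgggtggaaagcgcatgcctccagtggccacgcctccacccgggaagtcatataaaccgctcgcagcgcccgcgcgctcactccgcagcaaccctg
Btg1, chr10:96616751-96617000, plus strand: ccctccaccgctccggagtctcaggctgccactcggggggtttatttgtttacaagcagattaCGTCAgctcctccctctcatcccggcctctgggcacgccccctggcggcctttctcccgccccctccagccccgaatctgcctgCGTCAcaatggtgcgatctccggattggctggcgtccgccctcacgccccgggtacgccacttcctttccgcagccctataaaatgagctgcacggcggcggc
Btg2, chr1:134079156-134079405, minus strand: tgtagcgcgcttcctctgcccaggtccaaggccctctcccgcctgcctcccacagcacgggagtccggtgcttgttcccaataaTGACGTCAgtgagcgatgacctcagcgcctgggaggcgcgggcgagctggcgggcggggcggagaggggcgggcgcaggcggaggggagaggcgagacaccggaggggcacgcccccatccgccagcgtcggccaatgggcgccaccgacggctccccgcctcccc
Cdkn1a, chr17:29090729-29090978, plus strand: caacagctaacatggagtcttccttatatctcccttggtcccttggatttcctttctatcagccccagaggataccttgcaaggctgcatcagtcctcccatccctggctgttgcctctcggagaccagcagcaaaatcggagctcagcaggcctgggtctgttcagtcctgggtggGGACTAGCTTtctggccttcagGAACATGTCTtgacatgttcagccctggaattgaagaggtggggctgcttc

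The full CRE was found in 2 of the 9 members with a promoter in the RefSeq table, Plk2 and Btg2, and in 1.62% of 27025 promoters of this length. Counted from the start site, it lay at -62 to -55 in Plk2 and at -166 to -159 in Btg2. The core TGACG, which each full element holds on both strands, was in Plk2, Plk3, Btg1 and Btg2, 4 of 9, against 17.9% of promoters. These 4 windows were 60.0 to 73.2% G and C, against a median of 52.0% over all promoters. The shares over all promoters are therefore not matched for base content. The AP-1 element TGANTCA was in 0 of 9 (6.87% of promoters), the EGR element GCGGGGGCG in 0 of 9 (2.56%), an NF-kB element in 0 of 9 (0.13%) and the CArG box, the site of serum response factor, in 0 of 9 (1.4%), all on both strands. The NF-kB element was searched as a single fixed sequence, without its variants, and matched 35 of 27025 promoters. A result of 0 of 9 was therefore likely in any case and does not show a lack of NF-kB sites. At shares of 2.56 and 1.4%, 0 of 9 also says little for the EGR element and the CArG box. The p53 half-site was in Gadd45a, Cdkn1a and Mdm2, 3 of 9, against 7.18% of promoters. Cdkn1a has 2 start windows in the table, and its matches lay in the one shown, while the other, chr17:29093519-29093768, held none. A match is a stretch of letters and not a shown binding site, and windows of this length leave out distal and intronic elements.

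Levels per transcript length spanned a wide range (RPKM, read counts scaled to exon length and library size). Btg1 was the most abundant member in both groups, at 144 ± 22.4 RPKM in the combination and 191 ± 14.9 RPKM in monotherapy (SD, n = 3 each), in the 98.3 percentile of the 15142 genes tested. Trp53inp1 and Btg2 followed, at 63.3 ± 10.2 and 49.9 ± 0.485 RPKM in the combination and 51.8 ± 9.17 and 62.3 ± 3.22 RPKM in monotherapy. Their ranges were separate in the combination and overlapped in monotherapy, where their order was the opposite. Below them came Gadd45b and Mdm2, whose ranges overlapped in the combination and were separate in monotherapy. Gadd45g, Plk3 and Gadd45a followed, and in both groups the ranges of neighbours among these 3 overlapped. Plk2 was ninth, at 1.08 ± 0.272 RPKM in the combination and 2.93 ± 0.63 RPKM in monotherapy, and Cdkn1a last, at 0.425 ± 0.127 and 0.509 ± 0.24 RPKM, in the 17.7 percentile. The resting-state genes of the BTG pair and Trp53inp1 were thus the abundant ones, and the p53-induced cell cycle inhibitor was the lowest, with 21 to 46 reads in the combination libraries and 29 to 72 in the monotherapy libraries.

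Of the 10 members, all of which passed the filter on low counts, Plk2 fell, none rose and 9 did not pass in edgeR's quasi-likelihood test (adjusted p under 0.05 over all genes). Over all 15142 genes 0.132% were called lower and 0.951% higher. DESeq2 called Plk2, Gadd45b and Plk3 lower, where it called 0.332% of 18662 genes lower and 1.39% higher. limma-voom called Plk2 alone, where it called 0.0925% of all genes lower and 0.819% higher. Gadd45b was called beside Plk2 with library totals alone (0.106% of all genes lower) and without a count filter (0.347% of 32567 genes lower). The combination libraries all lay below the monotherapy libraries in 5 members (Plk2, Plk3, Gadd45b, Btg1 and Btg2) and all above in Mdm2, and the groups overlapped in 4. Of all genes tested, 7.54% were separated with the combination lower and 7.17% with the combination higher, 14.7% in all. Of the members 8 had a log2 fold change below 0 and 2 above 0, where 50.1% of all genes lay below 0, and their median was -0.36, beside -0.0006 over all genes. Nothing is read from these counts, because the members were selected on the same contrast. In RNA from bulk cells, fewer cells of a type and less RNA per cell cannot be told apart.

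**Figure D1:**
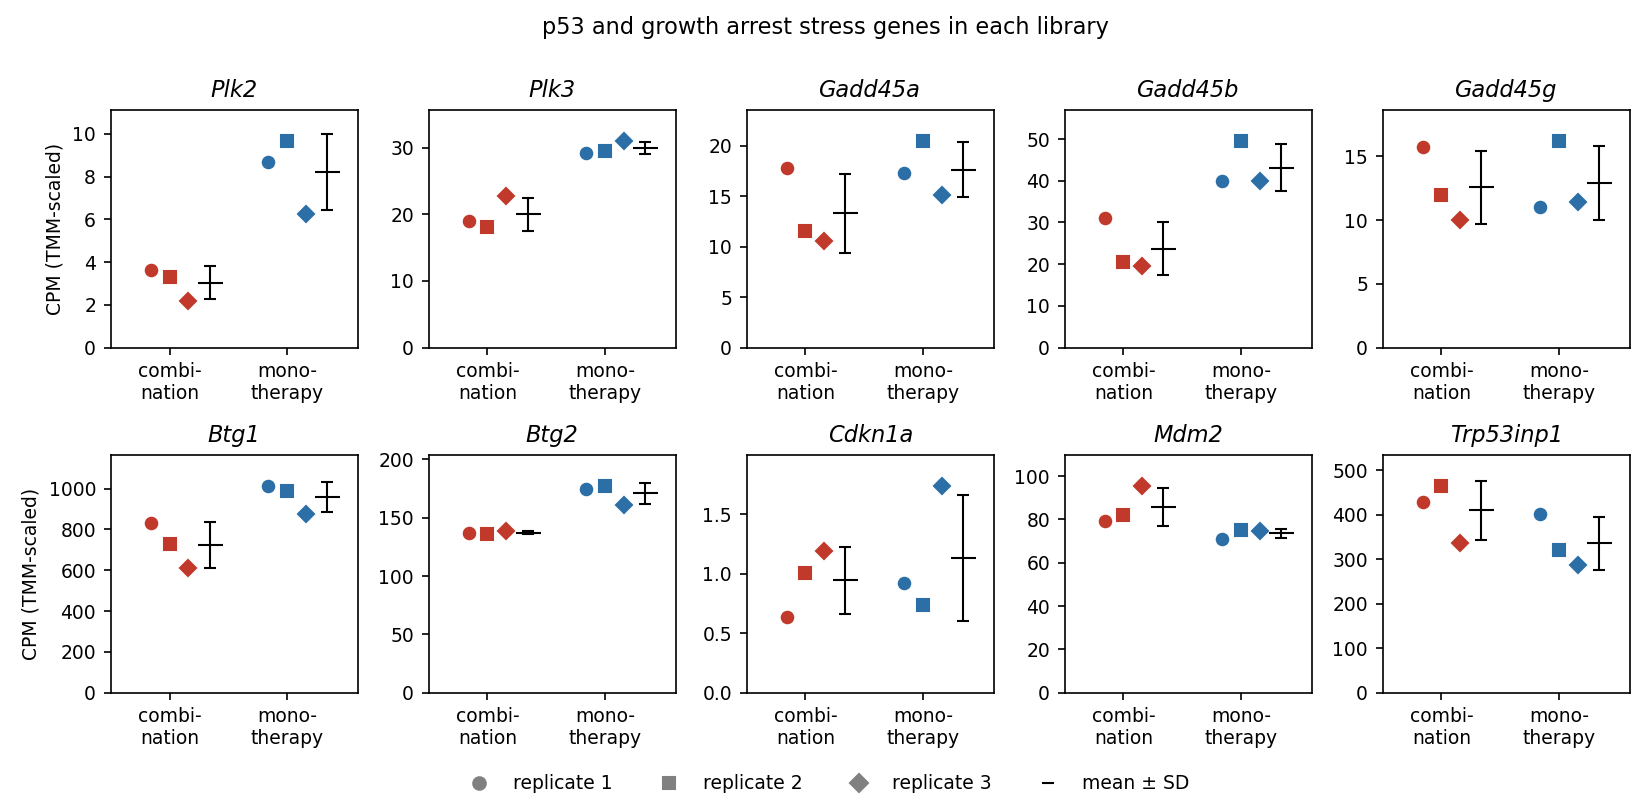
Counts scaled to library size (CPM, with TMM factors) of each member in each library, combination on the left and monotherapy on the right, with symbols for the replicate and the black mark for the mean ± SD over 3 mice. Plk2, Plk3, Gadd45b, Btg1 and Btg2 have all combination points below all monotherapy points, Mdm2 has them above, and the other members overlap.

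Plk2 showed the largest difference among the members. This kinase acts in centriole duplication and in stress responses, and lies at chr13:110395044-110400844 on the plus strand. It had 3.62, 3.32 and 2.18 CPM in combination replicates 1, 2 and 3, against 8.69, 9.68 and 6.25 CPM in monotherapy replicates 1, 2 and 3, from 84 to 126 reads per combination library and 259 to 381 per monotherapy library. The highest combination library lay well under the lowest monotherapy library, and the third library was the lowest of its group on both sides. On the log2 scale the fold change was -1.43 ± 0.26 (SE), a level 37.0% of that in monotherapy (edgeR adjusted p = 0.0309). The call ended without any 1 of the monotherapy replicates and without combination replicate 2 (log2 fold changes of -1.38, -1.30, -1.60 and -1.49; adjusted p = 0.182, 0.184, 0.0656 and 0.12), and adjusted p ran from 9.36e-07 to 0.184 over all settings tried.

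Plk3, its paralog with roles in stress and cell cycle checkpoints, lies at chr4:117128655-117133963 on the minus strand. It had 19.1, 18.1 and 22.8 CPM in combination replicates 1, 2 and 3, against 29.3, 29.5 and 31.1 CPM in monotherapy replicates 1, 2 and 3. The groups did not overlap, and the coefficient of variation was 12.4% in the combination and 3.22% in monotherapy, where the values lay close together. Its log2 fold change was -0.58 ± 0.14 (SE; edgeR adjusted p = 0.112), and DESeq2 gave an adjusted p of 0.0437. Plk2 made up 14.6, 14.2 and 7.93% of the summed RPKM of both kinases in combination replicates 1, 2 and 3, against 21.1, 22.9 and 15.4% in monotherapy replicates 1, 2 and 3. Plk3 was thus the more abundant paralog in every library, and the Plk2 share was lower in the combination with ranges that nearly touched. Exons of Plk3 share 84 bases with Tctex1d4 on the other strand, which had 8 to 19 counts in combination libraries and 15 to 23 in monotherapy libraries.

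The other polo-like kinases, which drive cell division, lay on the other side of 0. Of 2 tested, Plk1, the main mitotic kinase of the family, rose, and Plk4, which builds centrioles, did not pass. Plk1 had 13.5, 11.3 and 17.4 CPM in combination replicates 1, 2 and 3, against 4.93, 6.58 and 5.57 CPM in monotherapy replicates 1, 2 and 3, a log2 fold change of 1.30 ± 0.20 (SE; edgeR adjusted p = 0.0174). Its call ended without any 1 of the monotherapy replicates (adjusted p = 0.133, 0.0654 and 0.108). Plk4 had 13.7 ± 0.334 CPM in the combination and 12.6 ± 0.978 CPM in monotherapy (SD, n = 3 each). Plk5 had 0 counts in every library. Plk1 also belongs to a list of 30 mitosis genes that moved with the groups, with 840, 843 and 1012 CPM summed over the list in combination replicates 1, 2 and 3, against 347, 391.6 and 352 CPM in monotherapy replicates 1, 2 and 3. That list was drawn up with earlier results of these data known. In it 26 of 30 genes rose, where 0.951% of all genes were called higher. Without monotherapy replicates 1, 2 and 3, 8, 16 and 9 did so, and 21 to 26 without any 1 combination library. The part of dividing cells in the values of the members was not tested.

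**Figure D2:**
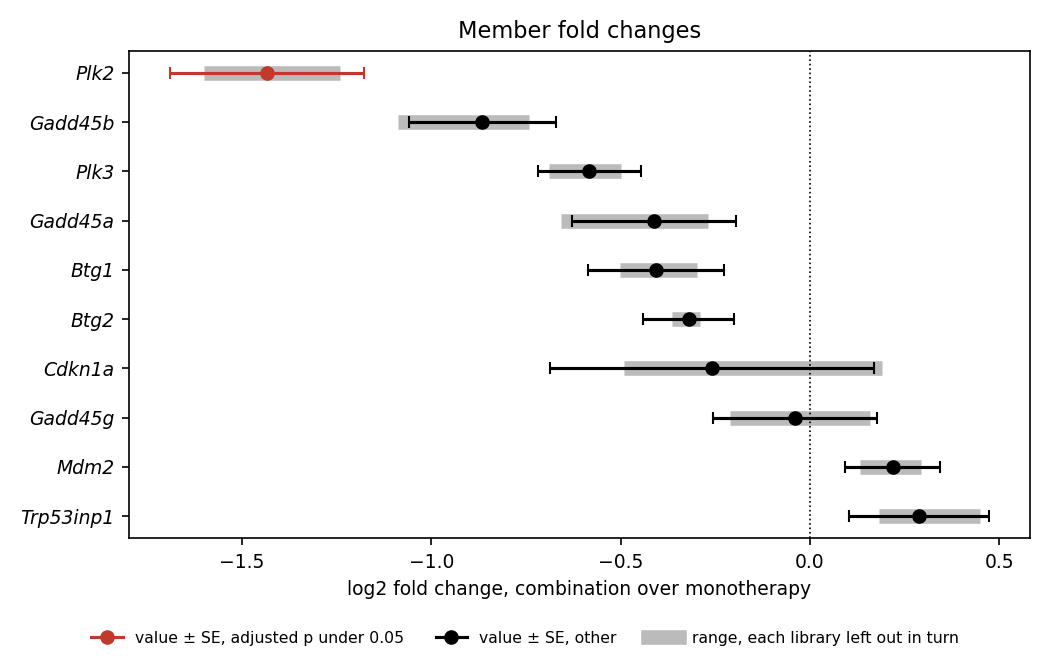
Log2 fold change of each member, combination over monotherapy (points, bars are ± 1 SE; red where the adjusted p is under 0.05), with grey bands for the range when each library is left out in turn. Plk2, Gadd45b, Plk3, Gadd45a, Btg1 and Btg2 keep bands below 0, Mdm2 and Trp53inp1 above 0, and the bands of Gadd45g and Cdkn1a cross 0.

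The GADD45 genes encode small stress-induced proteins that bind MAP3K4, PCNA and other partners. Gadd45b, at chr10:80930091-80932204 on the plus strand and known in mouse T cells for activating p38, had 31.1, 20.6 and 19.5 CPM in combination replicates 1, 2 and 3, against 39.9, 49.6 and 40.03 CPM in monotherapy replicates 1, 2 and 3. The groups were separate, and combination replicate 1 lay nearest to monotherapy. For Gadd45b the log2 fold change was -0.87 ± 0.19 (SE; edgeR adjusted p = 0.0951, DESeq2 adjusted p = 0.00408). It was -0.48 in a fit without combination replicates 2 and 3, which has 1 combination library and is given with no test.

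Gadd45a, at chr6:67035096-67037457 on the minus strand and the member of the family best known as a p53 target, had 17.8, 11.5 and 10.5 CPM in combination replicates 1, 2 and 3, against 17.3, 20.5 and 15.1 CPM in monotherapy replicates 1, 2 and 3. Combination replicate 1 lay inside the monotherapy range and the other combination libraries lay below it. The log2 fold change was -0.41 ± 0.22 (SE). It was 0.0055 in the fit with combination replicate 1 as the single combination library. Gadd45g, at chr13:51846678-51848468 on the plus strand and linked in mouse to interferon gamma production, had 15.7, 11.9 and 10.05 CPM in combination replicates 1, 2 and 3, against 11.1, 16.2 and 11.4 CPM in monotherapy replicates 1, 2 and 3. Its groups overlapped throughout, with a log2 fold change of -0.04 ± 0.22 (SE).

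Within the family the share of each gene was compared as well as its level. Gadd45b supplied 51.1, 49.3 and 51.4% of the summed RPKM of the family in combination replicates 1, 2 and 3, against 62.1, 60.6 and 63.3% in monotherapy replicates 1, 2 and 3. Gadd45g supplied 29.1 ± 1.55% in the combination and 19.8 ± 1.45% in monotherapy, and Gadd45a 20.2 ± 0.654% in the combination and 18.1 ± 1.07% in monotherapy (SD, n = 3 each). The shares of all 3 genes did not overlap between groups, those of Gadd45a by a small margin, while the levels of Gadd45g and Gadd45a did. In each library the 3 shares add up to the whole, so a lower Gadd45b share raises the others by arithmetic. The 3 separations are therefore not independent differences. On the log2 scale the levels of Gadd45g and Gadd45a differed by -0.04 ± 0.22 and -0.41 ± 0.22 (SE), neither above 0. These shares come from the contrast on which the members were selected, so no test is given. Exons of Gadd45a share 337 bases with E230016M11Rik on the other strand, which had 29 to 36 counts in combination libraries and 10 to 29 in monotherapy libraries, and reads of the 2 genes cannot be told apart where strand was not used.

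**Figure D3:**
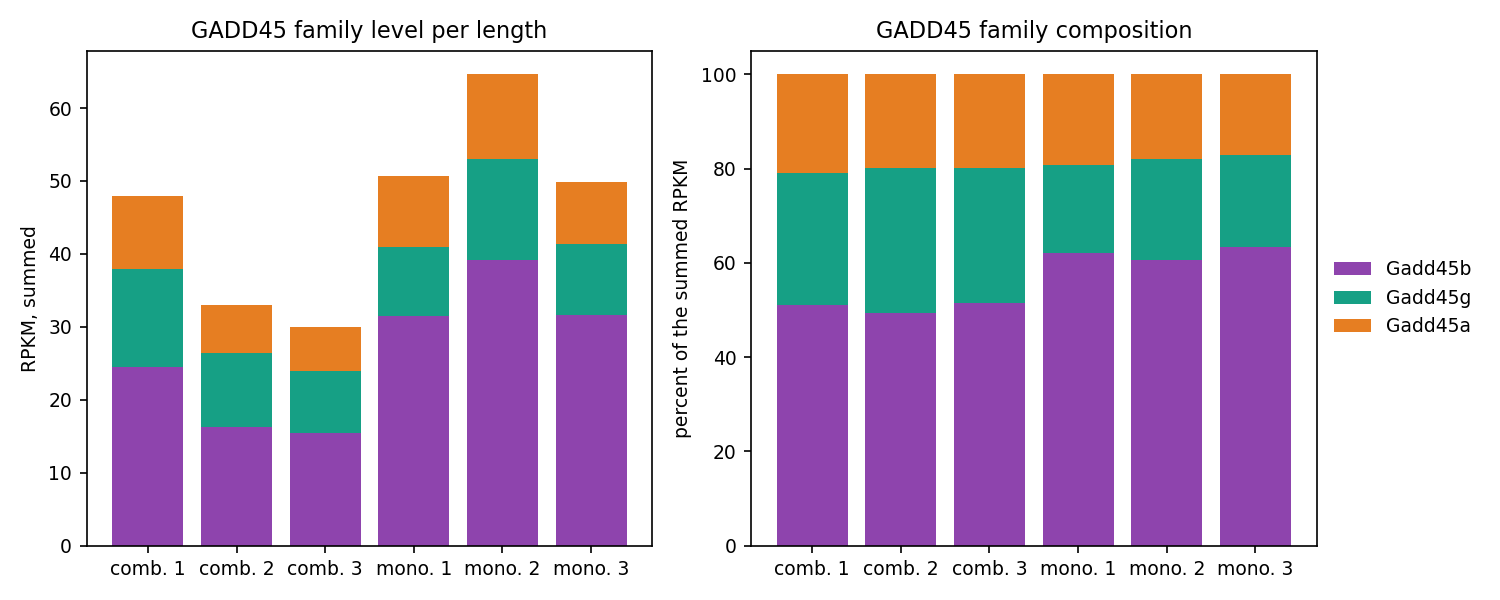
Left, summed RPKM of Gadd45b, Gadd45g and Gadd45a per library, and right, the percent of that sum from each gene, with the 3 combination libraries left of the 3 monotherapy libraries. Gadd45b makes up 49.3 to 51.4% in the combination libraries and 60.6 to 63.3% in the monotherapy libraries.

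The kinases of the p38 and JNK branches and other GADD45 partners showed no call. Of 13 tested genes 0 rose and 0 fell in edgeR, 0 had an unadjusted p under 0.05 (8% over all genes), and DESeq2 and limma-voom called 0. The median log2 fold change was 0.04 and turned sign in some fits, such as -0.061 without monotherapy replicate 1. The smallest p were those of Mapk11, a p38 kinase, at 18.6 ± 3.33 CPM in the combination and 14.9 ± 1.38 CPM in monotherapy, of Mapk8, which encodes JNK1, at 32.5 ± 4.16 and 39.6 ± 6.23 CPM, and of Map2k4, a kinase that activates JNK, at 42.4 ± 4.52 and 49.4 ± 3.36 CPM (SD, n = 3 each; combination before monotherapy).

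Btg1 and Btg2 encode antiproliferative proteins that recruit the CCR4-NOT deadenylase. Btg1, at chr10:96617001-96622813 on the plus strand, had 834, 727 and 610 CPM in combination replicates 1, 2 and 3, against 1013, 990 and 874 CPM in monotherapy replicates 1, 2 and 3. Its groups did not overlap, though the gap between combination replicate 1 and monotherapy replicate 3 was small. Its log2 fold change was -0.41 ± 0.18 (SE; edgeR adjusted p = 0.613). Btg2, at chr1:134075170-134079120 on the minus strand and a p53 target as well as an early response gene, had 137, 136 and 138 CPM in combination replicates 1, 2 and 3, against 175, 177 and 161 CPM in monotherapy replicates 1, 2 and 3. The combination values were nearly the same in the 3 mice, with a coefficient of variation of 0.971%, and the log2 fold change was -0.32 ± 0.12 (SE; edgeR adjusted p = 0.473). Btg2 supplied 25.9 ± 3.17% of the summed RPKM of the pair in the combination and 24.6 ± 0.608% in monotherapy, and the monotherapy values lay inside the combination range. The pseudogenes Btg1-ps1 and Btg1-ps2 held at most 2 counts in any library.

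In the rest of the BTG, TOB and CCR4-NOT list, 0 of 14 tested genes rose and 0 fell in edgeR. Among the 14, 3 had an unadjusted p under 0.05 (8% over all genes), and DESeq2 and limma-voom called 0. The median log2 fold change was -0.03, or 0.022 without combination replicate 1. Cnot8, a catalytic deadenylase, had 87.7 ± 6.44 CPM in the combination and 67.3 ± 3.26 CPM in monotherapy (SD, n = 3 each; log2 fold change 0.38 ± 0.12, SE). Tob2, another antiproliferative protein of the BTG family, had 101 ± 3.49 and 135 ± 18.2 CPM, and the deadenylase Cnot6l 275 ± 26.9 and 216 ± 4.17 CPM, combination before monotherapy. Tob2 lay on the same side as Btg1 and Btg2, and both deadenylases on the other, with none past the threshold.

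Of the genes closest to p53 itself, none passed the threshold. Cdkn1a, which encodes the cyclin-dependent kinase inhibitor p21 and lies at chr17:29090979-29100722 on the plus strand, had 0.638, 1.00 and 1.19 CPM in combination replicates 1, 2 and 3, against 0.919, 0.737 and 1.74 CPM in monotherapy replicates 1, 2 and 3. The groups overlapped, with a log2 fold change of -0.26 ± 0.43 (SE), and its biological coefficient of variation, 34.7%, was the highest of the members, beside a median of 18.8% over all genes. No difference in Cdkn1a was called (edgeR adjusted p = 0.968), and at this spread and depth a modest one could have been missed.

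Mdm2, the ubiquitin ligase that degrades p53 and is itself induced by it, lies at chr10:117688888-117710758 on the minus strand. It had 79.3, 82.2 and 95.5 CPM in combination replicates 1, 2 and 3, against 71.2, 75.2 and 74.5 CPM in monotherapy replicates 1, 2 and 3. All combination libraries lay above all monotherapy libraries, by a small margin, and the log2 fold change was 0.22 ± 0.13 (SE; edgeR adjusted p = 0.785). Trp53inp1, a p53-induced protein of autophagy and cell death at chr4:11156431-11174379 on the plus strand, had 428, 465 and 337 CPM in combination replicates 1, 2 and 3, against 401, 319 and 286 CPM in monotherapy replicates 1, 2 and 3. The groups overlapped, since combination replicate 3 lay under monotherapy replicate 1, and the log2 fold change was 0.29 ± 0.19 (SE). The p53 gene, Trp53, had 175 ± 19.7 CPM in the combination and 173 ± 5.38 CPM in monotherapy (SD, n = 3 each), so its log2 fold change was 0.02 ± 0.13 (SE).

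Other p53 targets had no call. Of 27 tested, 0 rose and 0 fell in edgeR, and 19 had a log2 fold change above 0 and 8 below 0. Among the 27, 4 had an unadjusted p under 0.05 (8% over all genes), and the median log2 fold change was 0.15. With summed B cell markers as covariate the median was 0.0023, and Trp53inp1 had a log2 fold change of 0.071. DESeq2 called Bbc3 alone higher and limma-voom called 0. Bbc3, which encodes the death-promoting protein PUMA, had 112, 43.0 and 52.3 CPM in combination replicates 1, 2 and 3, against 19.5, 34.7 and 27.4 CPM in monotherapy replicates 1, 2 and 3. The groups were separate, with combination replicate 1 far above the others, and the log2 fold change was 1.35 ± 0.35 (SE; edgeR adjusted p = 0.162, DESeq2 adjusted p = 0.00161), or 0.83 without combination replicate 1. Sesn1, a sestrin that restrains mTORC1, had 102 ± 16.2 CPM in the combination and 71.3 ± 7.82 CPM in monotherapy, and Steap3, a metalloreductase, 3.85 ± 0.574 and 2.44 ± 0.116 CPM (SD, n = 3 each), neither past the threshold.

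Regulators of p53 gave 0 calls among 20 tested in edgeR, with 2 at an unadjusted p under 0.05 (8% over all genes). DESeq2 made 1 call and limma-voom 0, and the median log2 fold change was -0.10. This median turned sign in DESeq2 (0.013), without a count filter (0.021) and without combination replicate 1 (0.048). Chek1, the checkpoint kinase of replication stress and the DESeq2 call, had 7.47 ± 0.944 CPM in the combination and 3.88 ± 0.797 CPM in monotherapy, Atr, the kinase above it, 59.2 ± 11.3 and 79.6 ± 14.3 CPM, and Chek2 6.64 ± 1.30 and 5.06 ± 0.428 CPM (SD, n = 3 each). Among 4 tested further inhibitors of cyclin-dependent kinases, Cdkn2c rose and 3 did not pass. Cdkn2c, which encodes p18, an inhibitor of CDK4 and CDK6, had 15.3, 12.7 and 13.7 CPM in combination replicates 1, 2 and 3, against 6.41, 8.003 and 6.61 CPM in monotherapy replicates 1, 2 and 3, a log2 fold change of 0.99 ± 0.17 (SE; edgeR adjusted p = 0.0238). The call ended without any 1 of the monotherapy replicates (adjusted p = 0.144, 0.0768 and 0.159) and without combination replicate 2 (adjusted p = 0.065). Cdkn1c had 0.467 ± 0.176 CPM in the combination and 0.660 ± 0.287 CPM in monotherapy, and Cdkn2d 107 ± 36.0 and 95.6 ± 7.55 CPM.

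**Figure D4:**
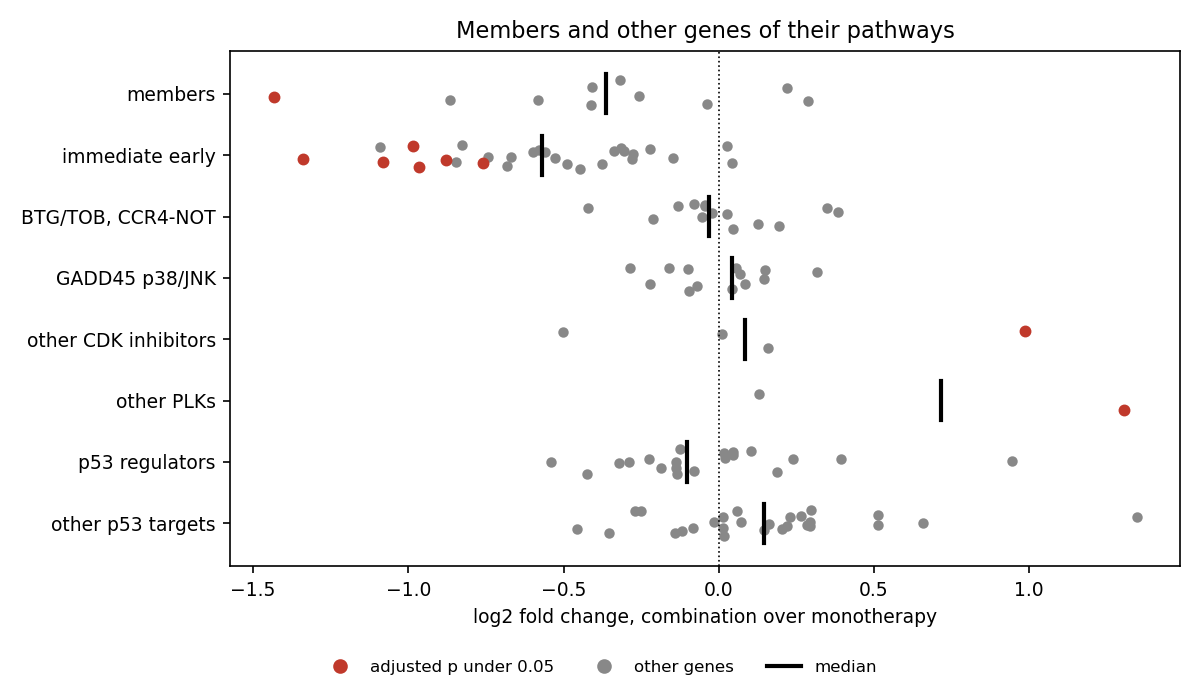
Log2 fold change, combination over monotherapy, of the members and of other genes of their pathways (points, red where the adjusted p is under 0.05; black bars are list medians). Members and immediate early genes have medians of -0.36 and -0.57, while the other lists have medians between -0.10 and 0.72.

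The members that lay lower were accompanied by immediate early genes, which are switched on within minutes by stimulation, stress or handling. Of 28 tested, 6 fell and 0 rose in edgeR, where 0.132% of all genes were called lower and 0.951% higher. In the list 26 lay below 0 (50.1% over all genes), with a median log2 fold change of -0.57. The list was drawn up with these results known. Sik1, a kinase gene induced by cAMP, fell by 1.34 ± 0.16 (SE) on the log2 scale, Nr4a2, an orphan nuclear receptor, by 1.08 ± 0.18, Egr1, an early growth response factor, by 0.76 ± 0.14, and Ppp1r15a, also known as Gadd34 and a phosphatase subunit of the integrated stress response, by 0.88 ± 0.16. Sik1 was the single one of the 6 called without any 1 of the monotherapy replicates, without combination replicate 2 and with Dct and Tyrp1 as a covariate. Summed over the list, levels were 3704, 2757 and 2673 CPM in combination replicates 1, 2 and 3, against 3972, 5028 and 4540 CPM in monotherapy replicates 1, 2 and 3. The part of stimulation or of handling time in these values was not tested.

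Profiles over the 6 libraries were compared by the mean absolute difference between log2 CPM values centred per gene. Among 9932 genes with a mean of at least 2 CPM, Plk2 included, the 5 nearest to Plk2 were Dnajb9, Sik1, Dusp1, Nr4a2 and Rgs2. Their distances were 0.236, 0.244, 0.249, 0.254 and 0.266 on the log2 scale. Dnajb9, an endoplasmic reticulum chaperone, had 65.9, 52.9 and 32.9 CPM in combination replicates 1, 2 and 3, against 91.9, 108 and 90.3 CPM in monotherapy replicates 1, 2 and 3. Like Plk2 it was lowest in combination replicate 3. Of the other members, Gadd45b was the nearest, at rank 11 with 0.29, and Plk3 stood at rank 82 with 0.419. Mdm2 and Trp53inp1 were among the most distant, at ranks 8671 and 9113, and Cdkn1a, under 2 CPM, had no rank (0.811). Because each gene was centred over all 6 libraries, the difference between groups stays in its profile. The ranks therefore largely repeat the contrast on which the members were selected, and nothing further is read from them.

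The median member was short, with exceptions. In GENCODE M21, an annotation of GRCm38, the principal transcripts of the 10 members had a median genomic span of 5554 bases and 4 exons, against 21404.5 bases and 9 exons over 11814 tested genes and 3895 bases and 3 exons over 28 tested immediate early genes. Mdm2, at 21884 bases and 12 exons, lay above both all-gene medians, Trp53inp1 spanned 17949 bases, and Plk2 and Plk3 had 14 and 15 exons. The pentamer ATTTA, the core of AU-rich elements that shorten the life of messenger RNA, occurred at a median of 2.82 per kilobase of 3′ untranslated region in the members, 2.77 in the immediate early genes and 1.20 over all. Plk3 held 4 copies in 332 bases and Plk2 held 2 in 620, while Gadd45b and Gadd45g held 0. The untranslated regions had close medians, 977 bases in the members and 988 over all genes. Among the members they ran from 332 bases in Plk3 to 4420 in Trp53inp1. These densities are a description.

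Library depth ran from 34568074 to 39120808 counts in the combination and from 37116680 to 40101346 in monotherapy, and all 6 CD8 T cell markers were abundant, with 36901 to 60203 reads of Cd8a or Cd8b1 per combination library and 43557 to 63542 per monotherapy library, and 14 to 80 and 60 to 127 reads of Cd4. Summed B cell markers ran from 511 to 629 CPM in the combination and from 499 to 567 CPM in monotherapy, where Ighm made up most of the sum. Of the 9 B cell markers 6 lay below 0, the median log2 fold change was -0.43, and Cd22 rose, at 22.5 ± 5.46 CPM in the combination and 8.33 ± 2.15 CPM in monotherapy (SD, n = 3 each). Natural killer cell markers summed to between 171 and 208 CPM in the combination and between 120 and 138 CPM in monotherapy, with 5 of 6 above 0. Eomes, which CD8 T cells also express, made up most of that sum, and Klre1 was the one called higher; Cd22 and Klre1 are named after their values were seen. Red cell markers lay below 0 in 3 of 3 tested (median -1.52) and stroma and endothelium markers in 5 of 5 (median -0.81), with no call. CD4 and regulatory T cell markers lay below 0 in 4 of 4 (median -0.45). Dendritic cell markers lay above 0 in 4 of 4 tested (median 0.32) and myeloid markers in 3 of 5 (median 0.11). These 3 lists had no call either. The pigment enzyme genes Dct and Tyrp1 summed to 0, 582 and 743 reads over combination replicates 1, 2 and 3, against 1, 0 and 0 in monotherapy replicates 1, 2 and 3. The 7 pigment cell markers, of which Pmel made up most reads, summed to 30.3, 42.6 and 54.7 CPM in combination replicates 1, 2 and 3, against 26.0, 21.9 and 28.7 CPM in monotherapy replicates 1, 2 and 3. In combination replicate 1, Dct, Tyrp1, Tyr, Mlana and Sox10 were all at 0. The part of these transcripts and of the other cell type markers in the members' values was not tested, beyond the fits with a covariate. With Dct and Tyrp1 as a covariate no member was called, and Plk2 had a log2 fold change of -1.22 (edgeR adjusted p = 0.151). Their summed reads were 0 in combination replicate 1 and at most 1 in each monotherapy library. The group term of that fit therefore rests mainly on combination replicate 1, and the lost call cannot be read as an adjustment for these transcripts. With combination replicate 1 as the single combination library, Plk2 had a log2 fold change of -1.19 and Plk3 of -0.66, given with no test.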

How the data were processed

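RNA of CD8+ T cells sorted from lymph nodes was sequenced in 6 libraries of 6 mice. Groups and replicate numbers come from the sample titles. Per gene, the authors deposited read counts as whole numbers without normalization. The tools named per the submitters' processing notes are DESeq2, Subread 1.5.2, featureCounts and STAR 2.5.2b, and the sources used here give no settings, strand use or genome build. Exon lengths per gene, in bases, are another deposited column. Counts per library and in the series table were identical in 6 of 6 libraries. Another 6 columns, which match no sample here, were left aside.

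Of 49315 genes, 48970 were in GENCODE M21 and 91.4% of these had the same coordinates, so the deposited coordinates were taken as GRCm38. Of the 10 members, 5 (Plk2, Gadd45b, Btg1, Mdm2 and Cdkn1a) have other start or end positions there, so their structure values refer to the M21 transcripts. Promoters are from RefSeq (GRCm38.p6), with 9 of 10 members matched; Trp53inp1 has none there.

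Counts were fitted in R 4.3.3 with edgeR 4.0.16 (quasi-likelihood F-test, TMM factors of 0.901 to 1.12, filterByExpr by group, no covariate), which left 15142 genes, with Benjamini-Hochberg adjustment over all of them. The SE is the size of the unshrunken log2 coefficient over the square root of the F statistic. CPM and RPKM use the TMM-scaled totals, and RPKM the deposited exon length. DESeq2 1.42.0 and limma-voom (limma 3.58.1) were alternatives. The members, gene lists and tests were chosen with earlier results of these data known. Named genes are the members, Trp53, up to 4 called genes of each pathway list (otherwise the 3 with the smallest p) and the 5 genes most like a called member, without clone-style names and receptor segments. The mitosis and cell marker lists are given as sums, counts of genes or medians, with a few of their genes named in the text.

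On simulated counts for 14789 genes of this comparison, the test called 52.3% of 44 genes lowered to 0.5 of their level, 6.12% of 49 lowered to 0.667, 36% of 50 raised 2-fold and 4.35% of 46 raised 1.5-fold. Chi-square per gene between replicates ran from 9.79 to 43.93 in monotherapy and from 86.25 to 295 in the combination. Replicates of a group therefore differed by more than counting noise, and by more in the combination. The largest value was that of combination replicates 1 and 3.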

Additional observations from a re-analysis of the deposited data

How the results depend on the processing

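Leaving out 1 library at a time moved the number of genes called from 164 to between 35 and 282. Over the same fits 0 to 2 members were called, 0 to 1 other p53 targets, p53 regulators, other inhibitors of cyclin-dependent kinases and other polo-like kinases, 1 to 8 immediate early genes and 8 to 26 mitosis genes. The log2 fold change ran from -1.60 to -1.24 for Plk2, -0.69 to -0.50 for Plk3, -1.09 to -0.74 for Gadd45b, -0.66 to -0.27 for Gadd45a, 0.13 to 0.29 for Mdm2, 0.18 to 0.45 for Trp53inp1, -0.21 to 0.16 for Gadd45g, -0.49 to 0.19 for Cdkn1a, -0.092 to 0.38 for Cdkn2d and -0.077 to 0.094 for Trp53. DESeq2 called 322 genes, 3 of them members (Plk3 at -0.59, Gadd45b at -0.87), 1 p53 target, 1 regulator and 12 immediate early genes. Without a count filter 453 genes were called (0.347% lower), 2 of them members (Gadd45b at -0.86), with 1 target, 1 regulator and 12 immediate early genes. With library totals alone 2 members were called (Gadd45b at -0.91), beside 0.106% of all genes lower. With Dct and Tyrp1 as a covariate 0 members (Plk2 at -1.22), 1 p53 target, 2 regulators, 0 other polo-like kinases and 1 immediate early gene were called, and Gadd45g (0.28) and Trp53 (-0.084) changed sign. With summed B cell markers as covariate Cdkn1a (0.071) and Cdkn2d (-0.15) did. The fit with Dct and Tyrp1 rests mainly on combination replicate 1, the combination library without their counts. A fit without both combination libraries that held Dct and Tyrp1, chosen after seeing the data, gave 0.0055 for Gadd45a, 0.28 for Gadd45g, -0.48 for Gadd45b and -0.83 for Cdkn1a; it has 1 combination library and no test. The cause of these shifts was not tested.

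Deviations of same-numbered libraries from their group means had correlations of 0.145, -0.0551 and 0.279 for replicates 1, 2 and 3. Those of different-numbered libraries ran from -0.229 to 0.119. With 3 libraries per group, these values cannot show whether the numbers pair the mice. With the replicate number as a block 288 genes were called (0.376% lower), 3 of them members (Plk2, Plk3 at -0.59 and Gadd45b at -0.89), with 1 p53 target, 1 regulator and 11 immediate early genes. The block changed no other count of the lists by over 1.5 times.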
